A study of Mus musculus with 18 samples.

Results

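The nascent RNA of 7 genes that break down heme, carry it out of the cell or sense it was followed through erythroid maturation in the mouse fetal liver. The genes are Hmox1 and Hmox2 (heme oxygenases), Blvra and Blvrb (biliverdin reductases), Flvcr1 and Abcg2 (exporters) and Bach1 (a heme-binding repressor), and they were found by symbol among the 54232 genes of the count table. All 7 were present and all 7 passed the filter on low counts. Flvcr1 was matched through an older symbol of the gene, Mfsd7b.

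Heme is the iron-holding ring that hemoglobin needs, and free heme is toxic. Heme oxygenase opens the ring and releases iron, carbon monoxide and biliverdin, and a biliverdin reductase turns biliverdin into bilirubin. HMOX1 is the inducible oxygenase, abundant in the macrophages that clear old red cells, and HMOX2 is the constitutive one. FLVCR1, known as a heme exporter and a choline carrier of the plasma membrane, is needed for red cell production, and ABCG2 is an ATP-driven pump that carries porphyrins and heme among other substrates. BACH1 pairs with small MAF proteins to repress genes such as Hmox1 and the ferritin genes, and binding of heme takes it off DNA.

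Nascent RNA was labelled with 4-thiouridine (4sU, a uridine analogue built into RNA as it is made) at 500 µM for 45 min, after sorted cells had rested for 6 h, then purified and sequenced. All cells came from C57BL/6 embryos at stages e12.5 to e13.5 (days of gestation), with no engineered allele or other treatment named. Cells negative for lineage markers were sorted on the transferrin receptor CD71 and on Ter119, a surface protein gained as erythroid cells mature. The populations were S0-Low (CD71 low, Ter119-), S0-Medium (CD71 medium, Ter119-), S1 (CD71 high, Ter119-), S2 (CD71 high, Ter119 medium) and S3 (CD71 high, Ter119 high). Lin+ cells, positive for lineage markers, were the other population, and each of the 6 populations had 3 replicates, giving 18 libraries. The sources used here do not say which animals a replicate came from, so p-values measure the spread between these libraries.

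Totals were 9452476 to 40567976 counts per library, and the shallowest library was replicate 3 of S0-Low. Levels are given as CPM, the counts per 1000000 counts of a library after scaling by trimmed means (TMM). The summed level of 8 erythroid marker genes was 507 to 1179 CPM in S0-Low, 27548 to 47107 CPM in S3 and 237 to 279 CPM in Lin+. The Lin+ libraries, labelled as erythroblasts like the others, held 2880 to 5576 CPM of 9 neutrophil and monocyte markers, which stood at 409 to 832 CPM in S0-Low and 0 to 1.58 CPM in S3. Mpo alone made up 4519, 2367 and 1895 CPM of the Lin+ sums and 739, 431 and 326 CPM of the S0-Low sums. Lin+ also held 294 to 812 CPM of 5 megakaryocyte markers and 258 to 536 CPM of 6 mast cell and basophil markers. Itgam, which encodes the gate antigen CD11b, was listed at 0 counts in all 18 libraries. The sum of 6 stem and progenitor markers was 986 to 1389 CPM in S0-Low, 1.38 to 10.7 CPM in S3 and 993 to 1454 CPM in Lin+. Replicate 3 lay furthest toward S3 on the first principal component in each of the 5 erythroid populations. Fewer expressing cells and less RNA per cell cannot be told apart in sorted bulk samples.

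Between S0-Low and S3, Blvrb, Abcg2 and Bach1 rose, and the other 4 genes did not pass the test (a call is an adjusted p under 0.05, corrected over all genes tested). Blvrb was 23.7-fold and Abcg2 14.8-fold higher in S3 by the ratio of mean CPM, and Bach1 was 3.18-fold higher. Flvcr1 fell late in the series, between S1 and S3, to 0.222 of its S1 level. Hmox1, Hmox2 and Blvra did not pass the test of any difference among the 5 erythroid populations (adjusted p = 0.949, 0.733 and 0.931, edgeR), which 3 of the 7 genes and 24.6% of all genes tested passed. With the replicate number as a block Flvcr1 passed that test too (adjusted p = 0.0343 against 0.142 without the block, edgeR), making 4 of 7 against 33.1% of all genes. In S3 against S0-Low, 3 of the 7 were called, all of them higher, while 35.8% of 16555 genes were called and 13.4% were called higher.

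**Figure D1:**
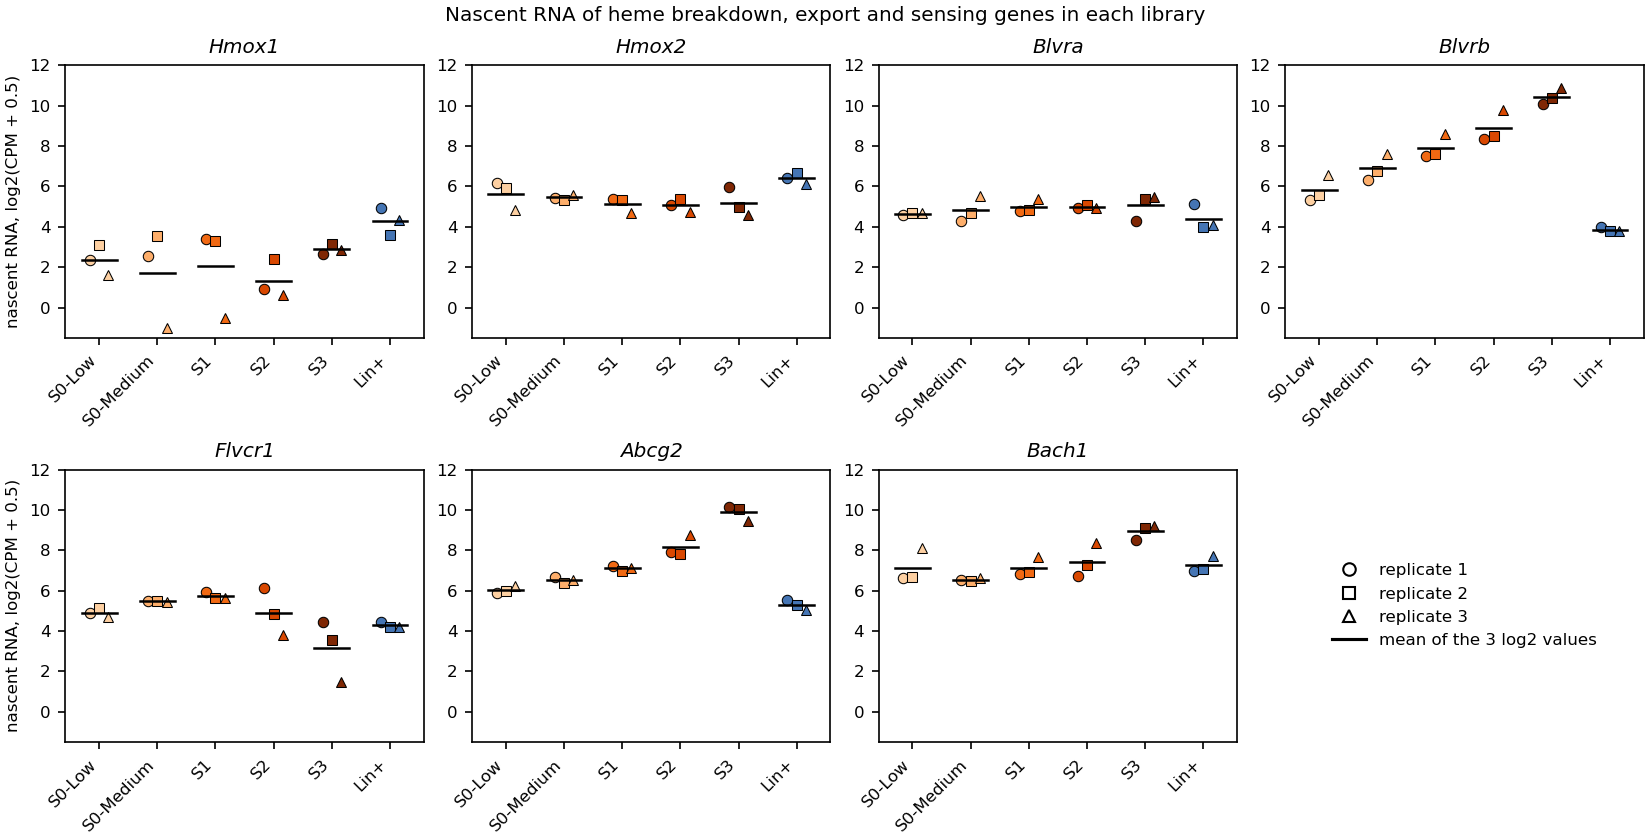
Nascent RNA of each of the 7 genes in the 18 libraries, as log2(CPM + 0.5), by population on the x axis. Marker shapes give the replicate and lines the mean of the 3 log2 values. Blvrb and Abcg2 climb from S0-Low to S3 and are lowest in Lin+, Flvcr1 has its lowest mean in S3, and Hmox1 has its highest in Lin+.

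The stretches before the start sites of the 4 genes that rose or fell are shown because nascent RNA reads out transcription from such starts. Each is the 250 bases before a RefSeq start on build GRCm38.p6, written 5′ to 3′ along the gene's own strand. The motifs searched on both strands were the NF-E2, BACH and AP-1 core TGANTCA, the GATA factor site AGATAA, the CACCC box CCACCC, the GC box GGGCGG and the CCAAT box CCAAT, and capitals mark any of them. The windows are chr7:27447728-27447977 (plus strand) for Blvrb, chr6:58596422-58596671 and chr6:58640296-58640545 (plus strand) for Abcg2, chr16:87698704-87698953 (plus strand) for Bach1 and chr1:191026191-191026440 (minus strand) for Flvcr1.
Blvrb, upstream start: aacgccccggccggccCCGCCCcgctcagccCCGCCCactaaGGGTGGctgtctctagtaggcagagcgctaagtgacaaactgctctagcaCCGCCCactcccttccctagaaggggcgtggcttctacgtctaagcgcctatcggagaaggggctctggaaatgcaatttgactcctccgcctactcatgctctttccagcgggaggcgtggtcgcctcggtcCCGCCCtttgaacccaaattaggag
Abcg2, middle start: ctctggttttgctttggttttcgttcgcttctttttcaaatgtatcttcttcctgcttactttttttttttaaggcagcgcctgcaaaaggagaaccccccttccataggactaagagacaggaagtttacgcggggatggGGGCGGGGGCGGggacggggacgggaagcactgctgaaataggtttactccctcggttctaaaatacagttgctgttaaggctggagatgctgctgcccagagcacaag
Abcg2, downstream start: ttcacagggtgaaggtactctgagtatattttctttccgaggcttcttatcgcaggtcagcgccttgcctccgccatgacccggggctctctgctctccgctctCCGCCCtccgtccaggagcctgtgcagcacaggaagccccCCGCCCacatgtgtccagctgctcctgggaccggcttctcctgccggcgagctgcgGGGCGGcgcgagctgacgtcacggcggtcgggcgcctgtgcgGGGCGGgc
Bach1: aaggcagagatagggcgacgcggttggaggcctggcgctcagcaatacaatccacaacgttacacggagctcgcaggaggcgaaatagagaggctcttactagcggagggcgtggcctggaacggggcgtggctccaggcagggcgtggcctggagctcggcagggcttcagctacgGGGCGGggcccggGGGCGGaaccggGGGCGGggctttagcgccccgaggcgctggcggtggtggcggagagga
Flvcr1: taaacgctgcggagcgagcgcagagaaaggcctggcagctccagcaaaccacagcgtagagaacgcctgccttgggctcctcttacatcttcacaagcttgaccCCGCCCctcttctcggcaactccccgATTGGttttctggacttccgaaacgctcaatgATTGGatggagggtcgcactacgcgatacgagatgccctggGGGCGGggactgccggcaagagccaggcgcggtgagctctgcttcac
GC boxes made up most of the capitals, with 4 matches at the Blvrb start shown, 3 before Bach1, 2 before Flvcr1, and 2 and 4 at the Abcg2 starts shown. Of all 32851 starts in the table, 32.7% held a GC box in a window of this length. CCAAT matched at 2 places before Flvcr1, each on the opposite strand, and was found before 33.8% of all starts. In the windows shown the CACCC box matched once, at the upstream start of Blvrb and on the opposite strand (28.1% of all starts). The windows of the downstream Blvrb start and the upstream Abcg2 start are not printed, a selection made with the matches known. Each of them held 1 CACCC box on the gene's own strand and no other motif of the 5. Neither TGANTCA (6.75% of all starts) nor AGATAA (9.99%) matched in any of the 11 windows that the table held for 6 of the genes, all but Hmox1. These counts describe letters in the windows, and the counts per gene do not say which start was used.

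Blvrb encodes biliverdin reductase B, which reduces flavins as well as biliverdin, and lies on chromosome 7 (GRCm38 27447978 to 27465981, plus strand). Its S0-Low libraries held 39.8, 47.7 and 92.6 CPM in replicates 1, 2 and 3. S0-Medium held 79.6, 107 and 196 CPM, S1 held 183, 193 and 388 CPM, and S2 held 326, 366 and 873 CPM. The S3 libraries reached 1087, 1329.8 and 1858 CPM. Each of the 3 same-numbered pairs was higher at each of the 4 steps, yet the ranges of neighbouring populations overlapped at every step but the last, from S2 to S3. In each erythroid population replicate 3 was the highest.

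The log2 fold change of Blvrb from S0-Low to S3 was 4.57 ± 0.55 (SE, n = 3 per population, adjusted p = 2.88e-05, edgeR's quasi-likelihood test). Over the early stretch, S0-Low to S1, it was 2.08 ± 0.49 (adjusted p = 0.0316, edgeR), which made Blvrb the 1 gene of the 7 called there, against 2.92% of all genes. That early call was lost when any 1 of the 6 libraries but S0-Low replicate 3 was left out, with the lowest value, 1.65, without S1 replicate 3 (adjusted p = 0.163, edgeR), and also with the median-ratio size factors of DESeq2, called RLE in edgeR (adjusted p = 0.0615, edgeR) or a minimum of 10 counts (adjusted p = 0.0528, edgeR). With the replicate number as a block it held (2.09, adjusted p = 6.39e-05) and Abcg2 was called too (1.06, adjusted p = 0.0295), making 2 of 7 against 6.03% of all genes. From S1 to S3 Blvrb rose by a log2 fold change of 2.49 ± 0.50 (adjusted p = 0.00308, edgeR), in a comparison that called 4 of the 7 genes and 19.3% of all genes.

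No single step before S3 gave a call among the 7 genes, 0 with edgeR and 0 with DESeq2. At the first step (S0-Low to S0-Medium), the second (to S1) and the third (to S2), edgeR called 0 of 16555 genes each time, and DESeq2 called 0.284%, 2.42% and 0.888% of them. By edgeR's p before adjustment over genes, 1, 0 and 2 of the 7 were under 0.05 at these steps, Blvrb at the first and both Blvrb and Abcg2 at the last, beside 3.26%, 6.86% and 4.03% of all genes. With the replicate block Blvrb was called from S0-Low to S0-Medium (1.08 ± 0.19, adjusted p = 0.0491, edgeR) and from S0-Medium to S1 (1.01 ± 0.19, adjusted p = 0.0387, edgeR), where 0.139% and 0.344% of all genes were called.

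Blvra encodes the other biliverdin reductase and lies on chromosome 2 (GRCm38 127070629 to 127097084, plus strand). Its S0-Low libraries held 23.5, 25.2 and 25.3 CPM and its S3 libraries 19.2, 41.3 and 44.3 CPM. The 3 libraries of S3 straddled those of S0-Low. All means of Blvra over the 6 populations lay between 22.2 CPM in Lin+ and 34.9 CPM in S3, with overlapping ranges between every pair of neighbours in that order. The log2 fold change from S0-Low to S3 was 0.50 ± 0.43 (adjusted p = 0.377, edgeR).

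Both reductases were counted in the same libraries, so their ratio does not depend on scaling between libraries. The ratio of Blvrb to Blvra counts was 1.69, 1.90 and 3.65 in S0-Low and 56.4, 32.2 and 41.9 in S3, so the 2 populations did not overlap. In S0-Medium it was 4.18 to 4.30, in S1 6.80 to 9.58 and in S2 10.8 to 28.8. Lin+ was the only population with more Blvra than Blvrb counts, at 0.437 to 0.875. The mean log2 ratio was 4.22 higher in S3 than in S0-Low (exact permutation test, two-sided, p = 0.1, which is the lowest value this design can give).

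**Figure D2:**
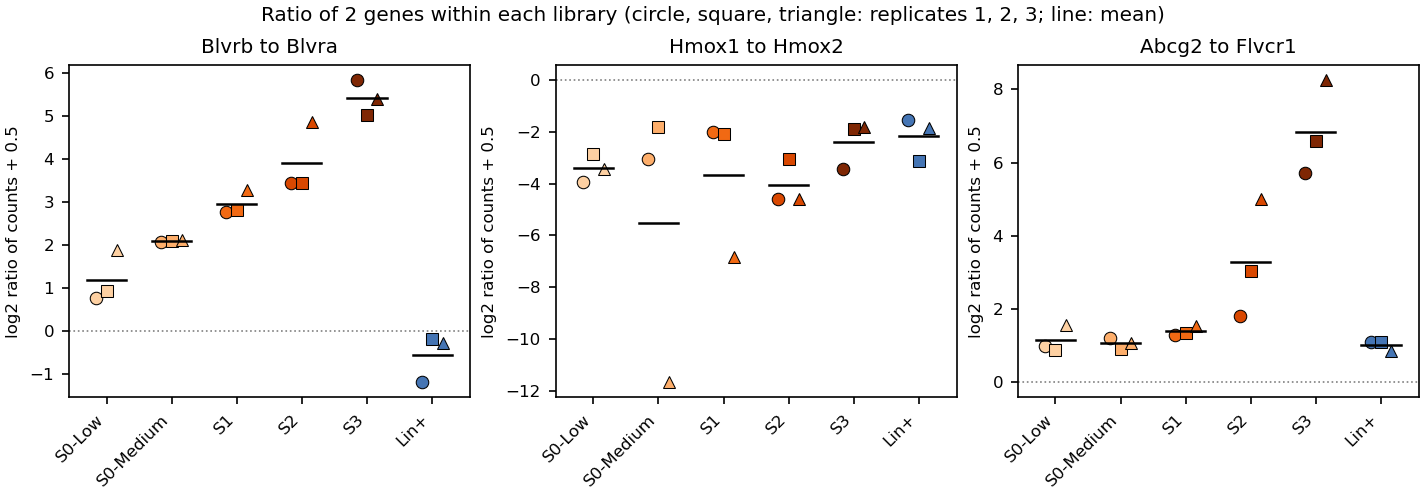
Log2 ratio of the counts of 2 genes within each library (each count plus 0.5), by population, for Blvrb to Blvra, Hmox1 to Hmox2 and Abcg2 to Flvcr1. Points are replicates, lines means and the dotted line equal counts. The Blvrb to Blvra ratio climbs through every erythroid population, and the Abcg2 to Flvcr1 ratio climbs between S1 and S3.

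Hmox1 encodes the inducible heme oxygenase and lies on chromosome 8 (GRCm38 75093618 to 75100593, plus strand). It was the lowest of the 7 genes by mean CPM in every erythroid population, and by mean CPM per kb of exon in every one but S3. S0-Low held 4.67, 8.10 and 2.57 CPM, S0-Medium 5.28, 11.2 and 0 CPM, and S1 10.0, 9.31 and 0.200 CPM. The S0-Medium value of 0 came from 0 counts in replicate 3, while replicates 1 and 2 held 228 and 482 counts. Counting error alone allows up to 3 counts there. S2 held 1.40, 4.87 and 1.05 CPM, and S3 held 5.75, 8.33 and 6.66 CPM. Replicate 3 was the lowest in each erythroid population but S3, and the cause was not tested. The S3 range lay above that of S2 and within the span of the earlier populations, and the log2 fold change from S0-Low to S3 was 0.43 ± 1.44 (adjusted p = 0.835, edgeR).

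In Lin+ cells Hmox1 reached 29.6, 11.5 and 19.4 CPM, above every erythroid library. The log2 difference was 1.98 ± 1.35 against S0-Low (adjusted p = 0.792, edgeR) and 1.54 ± 1.33 against S3 (adjusted p = 0.368, edgeR), so neither passed although the ranges did not overlap. Ranges lay wholly higher in Lin+ for 15.7% of all genes against S0-Low and for 36.8% against S3. The summed level of 14 macrophage markers was 754 to 907 CPM in Lin+, 28.4 to 66.5 CPM in S0-Low and 0.151 to 4.37 CPM in S3. Lyz2, which granulocytes and monocytes also express, made up 604, 667 and 789 CPM of the Lin+ sums, and without it the other 13 summed to 89.1 to 149 CPM in Lin+, 9.62 to 14.5 CPM in S0-Low and 0.151 to 4.37 CPM in S3. In S3 10 of the 14 were at 0 counts in all 3 libraries, but of these Cd163 (mean 0.0207 CPM) and Spic (0.138 CPM) were near 0 in Lin+ as well. The part of macrophage RNA in the Hmox1 levels was not tested.

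Hmox2 encodes the constitutive heme oxygenase and lies on chromosome 16 (GRCm38 4726361 to 4766742, plus strand), where exons of 5730403B10Rik overlap it on the opposite strand, so reads of the pair cannot be told apart if strand was not used in counting. Its values were 70.8, 59.2 and 28.1 CPM in S0-Low and 62.1, 31.1 and 23.3 CPM in S3. The populations between them had means of 33.3 to 43.5 CPM, and all neighbouring populations overlapped. The log2 fold change from S0-Low to S3 was -0.44 ± 0.44 (adjusted p = 0.443, edgeR), and the median over all genes in that comparison was -0.54.

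Lin+ had the highest mean of Hmox2, with 84.7, 100 and 69.9 CPM, all above the S3 libraries. Against S3 the log2 difference was 1.13 ± 0.41 (adjusted p = 0.0343, edgeR), beside a median of 0.69 over all genes. This call was lost when S3 replicate 2 or 3 or Lin+ replicate 1 or 2 was left out (0.88 to 1.14, adjusted p = 0.0678 to 0.127) and with no filter on low counts (1.22, adjusted p = 0.0583, edgeR). Hmox1 had fewer counts than Hmox2 in all 18 libraries, and their count ratio ran from 0.0662 to 0.137 in S0-Low and from 0.0931 to 0.287 in S3. The mean log2 ratio was 1.03 higher in S3 (exact permutation test, two-sided, p = 0.2, where 0.1 is the lowest possible).

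Abcg2 encodes the porphyrin and heme pump and lies on chromosome 6 (GRCm38 58584491 to 58692451, plus strand). It held 57.8, 63.1 and 75.7 CPM in S0-Low, 102, 83.9 and 90.5 CPM in S0-Medium and 147, 124 and 141 CPM in S1. S2 held 239, 226 and 435 CPM, and S3 held 1139, 1071 and 708 CPM. Lin+ held 46.3, 39.0 and 32.1 CPM. Abcg2 was the only one of the 7 genes whose ranges did not overlap at any neighbouring pair in the order of its means, from Lin+ through S0-Low to S3. At the 4 erythroid steps, 5.21%, 6.98%, 3.61% and 8.99% of all genes lay wholly higher in the later population.

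Abcg2 rose from S0-Low to S3 by a log2 fold change of 3.89 ± 0.33 (adjusted p = 2.09e-06, edgeR). The last step, S2 to S3, gave 1.70 ± 0.30 (adjusted p = 0.00344, edgeR), and Abcg2 was the 1 gene of the 7 called there, against 9.35% of all genes. With the replicate block 4 of the 7 were called at that step (18.6% of all genes), adding Blvrb (1.57, adjusted p = 0.000133), Bach1 (1.51, adjusted p = 0.00231) and Flvcr1 (-1.68, adjusted p = 0.047, edgeR). Leaving out S2 replicate 3 also gave 4 calls, leaving out S3 replicate 1 gave 2, and a fit on the 6 libraries alone gave 0 (Abcg2 1.66, adjusted p = 0.0984, edgeR). Shares of all genes called in these refits are not given, so the counts cannot be told apart from a shift over all genes. In S2, replicate 3 held 14525 CPM of the erythroid markers against 6197 and 6470 CPM in the others, and it was the highest S2 library for Abcg2, Blvrb and Bach1. The part of maturity within the S2 gate in these values was not tested.

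Flvcr1 encodes the other exporter and lies on chromosome 1 (GRCm38 191005832 to 191026190, minus strand). Its S0-Low libraries held 29.5, 34.4 and 25.6 CPM, S0-Medium 44.3, 45.1 and 42.9 CPM, and S1 59.6, 49.0 and 49.0 CPM. The ranges were apart at both of these steps, with the later population higher, though neither step passed the test. S2 was spread from 68.7 through 27.7 to 13.49 CPM in replicates 1, 2 and 3, the last being the S2 library with the most erythroid marker RNA. The part of maturity within the S2 gate in this spread was not tested. S3 held 21.6, 11.2 and 2.30 CPM, all lower than any S1 or S0-Low library, and Lin+ held 21.6, 18.1 and 17.7 CPM.

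From S1 to S3 Flvcr1 fell by 2.17 ± 0.66 on the log2 scale (adjusted p = 0.0321, edgeR). That call was lost when S1 replicate 1 or 2 or S3 replicate 2 or 3 was left out (adjusted p = 0.0678 to 0.0849) and in a fit on the 6 libraries alone (-2.25, adjusted p = 0.0823, edgeR). Values with 1 library left out ran from -2.97 without S3 replicate 1 to -1.72 without S3 replicate 3. The call held without replicate 3 of every population (-1.73, adjusted p = 0.0258, edgeR). It also held with the replicate block (-2.47, adjusted p = 0.00548, edgeR), where 29.4% of all genes were called. From S0-Low to S3 the log2 fold change was -1.36 ± 0.64 (adjusted p = 0.108, edgeR), which DESeq2 (-1.51, adjusted p = 0.0451) and scaling by library totals (-2.10, adjusted p = 0.0237, edgeR) put past the threshold, beside 44.3% and 44.6% of all genes. Leaving out S3 replicate 1 also did (-2.16, adjusted p = 0.0288, edgeR), while without S3 replicate 3 the value was -0.89 (adjusted p = 0.243, edgeR). The range in S3 was wholly below that in S0-Low, as for 25.9% of all genes, and wholly below that in S1, as for 27.5%.

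The 2 exporters thus had different courses, given here as a ratio with no test because the pair was formed after their values were seen. The count ratio of Abcg2 to Flvcr1 ran from 1.83 to 2.95 in the S0-Low libraries, from 1.86 to 2.30 in those of S0-Medium and from 2.46 to 2.88 in those of S1. It was 3.48, 8.13 and 32.2 in the S2 replicates and 52.7, 95.7 and 304 in S3. In Lin+ it was 1.81 to 2.15, within the span of the early erythroid populations.

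Bach1 encodes the heme-sensing repressor and lies on chromosome 16 (GRCm38 87698954 to 87733346, plus strand). It held 98.0, 102 and 272 CPM in S0-Low, 91.6, 89.6 and 98.1 CPM in S0-Medium and 111, 120 and 205 CPM in S1. S2 held 105, 154 and 324 CPM and S3 368.9, 552 and 585 CPM. All 3 S3 libraries lay above every other library of the 18, and S0-Low replicate 3 was well above the other 2 of its population. Blvrb, Abcg2 and Bach1 were the 3 of the 7 wholly higher in S3 than in S0-Low, as were 16.6% of all genes.

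The log2 fold change of Bach1 was 1.67 ± 0.46 from S0-Low to S3 (adjusted p = 0.0116, edgeR) and 1.79 ± 0.46 from S1 to S3 (adjusted p = 0.0141, edgeR). The first call was lost without S0-Low replicate 1 or 2 (1.35 and 1.36, adjusted p = 0.0646 and 0.0653, edgeR) and in a fit on the 6 libraries alone (1.45, adjusted p = 0.0513, edgeR). Without S0-Low replicate 3 the value was 2.27, and without replicate 3 of every population 2.20 (adjusted p = 0.000243, edgeR). The second call was lost without S1 replicate 1 or 2 (adjusted p = 0.0664 and 0.0675) and with library totals (1.11, adjusted p = 0.0803, edgeR). It held with the replicate block (1.84, adjusted p = 0.000328, edgeR), where 29.4% of all genes were called.

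Scaling moved these values together. Trimmed-mean scaling gave a median log2 fold change over all genes of -0.54 in S3 against S0-Low, and scaling by library totals gave -1.36. On library totals Blvrb (3.67) and Abcg2 (3.07) were still called, Bach1 was 0.77 (adjusted p = 0.177, edgeR) and Hmox2 was -1.20 (adjusted p = 0.0492, edgeR). Of all calls in that comparison 37.4% were higher with trimmed means and 15.7% with library totals, and the share went likewise from 34.9% to 11.3% in S3 against S2, from 37.4% to 13.1% in S3 against S1 and from 33.5% to 23% in S1 against S0-Low. Bach1 lay above the median gene on either scale, and its rise as a share of all nascent RNA was not called.

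**Figure D3:**
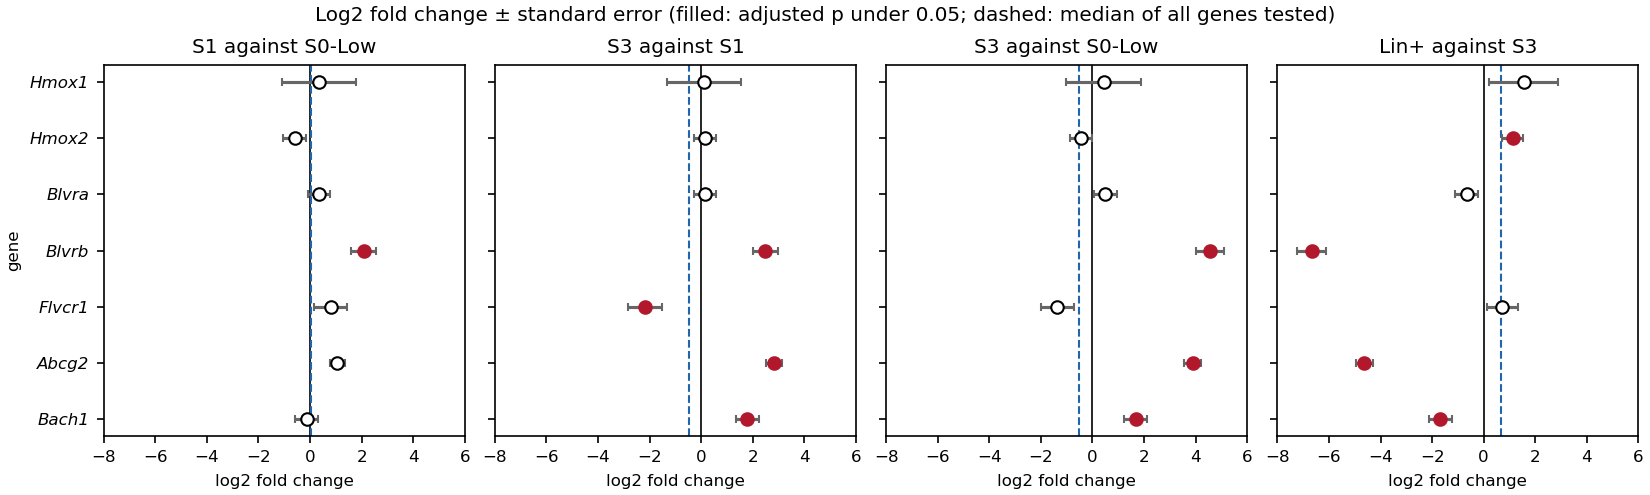
Log2 fold change of each of the 7 genes in 4 comparisons, with bars of 1 standard error. Filled points passed an adjusted p of 0.05, open points did not, and the dashed line is the median of all genes tested. Blvrb, Abcg2 and Bach1 stand to the right in S3 against S0-Low and to the left in Lin+ against S3.

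Lin+ cells differed from S3 in 4 of the 7 genes, against 42.2% of 17755 genes tested. Beside the higher Hmox2, Blvrb (-6.66 ± 0.56, adjusted p = 2.36e-07, edgeR), Abcg2 (-4.63 ± 0.33, adjusted p = 4.77e-08, edgeR) and Bach1 (-1.69 ± 0.45, adjusted p = 0.00611, edgeR) were lower in Lin+. Lin+ libraries held 15.1, 13.55 and 13.55 CPM of Blvrb and 127, 133 and 207 CPM of Bach1. On library totals Bach1 was no longer called (-0.86, adjusted p = 0.12, edgeR), and the median over all genes moved from 0.69 to 1.47 while the share of calls that were higher went from 66.7% to 84.2%. These comparisons share the S3 libraries with those above.

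Against S0-Low, 1 of the 7 genes was called in Lin+, Blvrb at -2.09 ± 0.46 (adjusted p = 0.0407, edgeR), beside 0.715% of all genes. The call was lost when any 1 of the 6 libraries but S0-Low replicate 1 was left out (values from -2.23 to -1.64, adjusted p = 0.0769 to 0.192) and with RLE size factors or a minimum of 10 counts (adjusted p = 0.0542 and 0.0796, edgeR), and it held with the replicate block (-1.93, adjusted p = 0.00086, edgeR), where 1.93% of all genes were called. Abcg2, at -0.74 ± 0.29 (adjusted p = 0.333, edgeR), and Flvcr1, at -0.64 ± 0.60 (adjusted p = 0.908, edgeR), had ranges wholly below S0-Low without passing, as had 6.96% of all genes, called or not.

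Per kb of exon, the 7 genes spanned a wide range of levels that reordered with maturation. In S0-Low the means were 42.5 CPM per kb for Blvrb, 25.5 for Bach1, 23.8 for Hmox2, 13.1 for Abcg2, 10.1 for Blvra, 7.30 for Flvcr1 and 2.37 for Hmox1. In S3 they were 1008 CPM per kb for Blvrb, 195 for Abcg2 and 81.2 for Bach1, while Hmox2 (17.5), Blvra (14.3), Hmox1 (3.20) and Flvcr1 (2.86) lay far below. In Lin+ Hmox2 led with 38.3 CPM per kb and Bach1 followed with 25.2.

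Of 12 other genes that BACH1 or the opposing activator NRF2 is known to control, 9 rose from S0-Low to S3 and 0 fell, with a median log2 fold change of 2.44 beside -0.54 over all genes, of which 13.4% were called higher and 22.4% lower. Hmox1, a gene of the same kind that was kept off this list as one of the 7, was not called (0.43, adjusted p = 0.835, edgeR). Ferritin heavy chain Fth1 went from 264 ± 43.8 to 1419 ± 253 CPM (2.43, adjusted p = 5.11e-05, edgeR) and light chain Ftl1 from 113 ± 17.5 to 623 ± 78.8 CPM (2.46, adjusted p = 7.81e-05, edgeR). Srxn1, which repairs oxidized peroxiredoxins, went from 23.1 ± 12.2 to 511 ± 198 CPM (4.46, adjusted p = 1.5e-05, edgeR), and Gclc, which starts glutathione synthesis, from 98.0 ± 19.3 to 878 ± 221 CPM (3.16, adjusted p = 1.75e-05, edgeR). Gclm, Slc7a11, Nqo1, Slc48a1 and Gsr were the others that rose, and Txnrd1 (0.25), Me1 (2.49) and Prdx1 (-0.86) did not pass. Without replicate 3 of every population 10 were higher and 0 lower, with Me1 called (2.39, adjusted p = 0.00364, edgeR). Shares of all genes in that fit are not given, so a shift over all genes cannot be told apart. On library totals, where 6.98% of all genes were called higher and 37.6% lower, 7 were higher and Prdx1 was lower (-1.61, adjusted p = 0.0279, edgeR). In Lin+ against S3, which shares the S3 libraries, 8 of the 12 were lower and 0 higher, with a median of -2.38 beside 0.69 over all genes, of which 14.1% were called lower. On library totals 7 were lower and 2 higher there (7.54% and 40.1% of all genes), the latter Gsr (1.34, adjusted p = 0.00929, edgeR) and Prdx1 (1.60, adjusted p = 0.0193, edgeR).

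Of 10 genes whose proteins work with or against BACH1, 9 were tested, and 5 rose and 1 fell from S0-Low to S3 (13.4% and 22.4% of all genes), with a list median of 0.93 beside -0.54 over all genes. Nfe2l1 (0.67), Maff (3.04) and Fbxo22 (-1.49) did not pass. Maff was called higher without replicate 3 of every population (3.02, adjusted p = 0.00477, edgeR). Fbxo22, whose product marks BACH1 for breakdown, was called lower there (-1.29, adjusted p = 0.00953), with RLE size factors (-1.65, adjusted p = 0.0425) and on library totals (-2.24, adjusted p = 0.0147, edgeR). Without S0-Low replicate 1, 3 of the list were higher and 1 lower, and without replicate 3 of every population 6 and 2. Shares of all genes in those fits are not given. Small MAF partner genes Mafk (2.51, adjusted p = 0.000419, edgeR) and Mafg (1.93, adjusted p = 0.000933, edgeR) rose, as did Nfe2 (2.83, adjusted p = 0.00372, edgeR), the MAF-binding activator of globin genes. Nfe2l2, which encodes NRF2, and its inhibitor Keap1 each rose by a log2 fold change of 0.93, and on library totals these were 0.06 and 0.08 and were not called, which left 3 of the list higher and 2 lower, Bach2 and Fbxo22 (6.98% and 37.6% of all genes), and a median of 0.08 beside -1.36. Bach2, the close relative of Bach1, had 25.7, 9.40 and 49.1 CPM in S0-Low and 0 counts in all 3 S3 libraries, at least 124-fold lower against a floor of 3 counts in the S3 library where that floor was highest, or at least 77.2-fold without S0-Low replicate 3. The sums of stem and progenitor and of neutrophil and monocyte markers were lower in S3 as well, and their part in the falls of Bach2 and of Lrp1, Por, Abcc1 and Abcc2 was not tested.

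**Figure D4:**
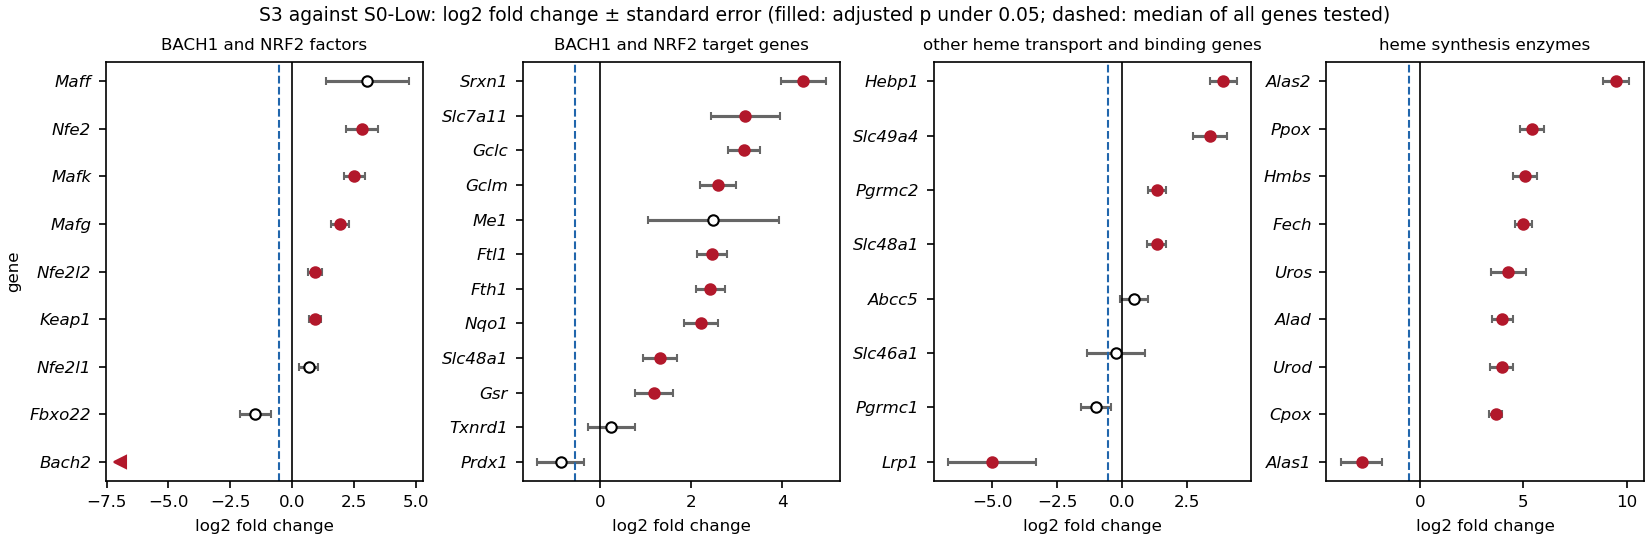
Log2 fold change from S0-Low to S3 for the tested genes of 4 lists, with bars of 1 standard error. Filled points passed an adjusted p of 0.05, the dashed line is the median of all genes tested, and the triangle marks Bach2 at its bound, since it had 0 counts in S3. In the target list 9 of 12 points are filled, all right of 0.

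Other genes that move or bind heme were mixed. Of 12 with an entry 8 were tested, 4 rose and 1 fell from S0-Low to S3, beside 13.4% and 22.4% of all genes. Hebp1, a heme-binding protein of the cytosol, was at 22.6 ± 4.84 CPM in S0-Low and 333 ± 69.0 CPM in S3 (3.88, adjusted p = 7.01e-05, edgeR). Slc49a4 (3.38), Pgrmc2 (1.33) and the lysosomal heme transporter Slc48a1 (1.33, also among the targets above) were the others that rose. Lrp1, the receptor for hemopexin-bound heme, went from 28.7 ± 12.3 to 0.877 ± 0.857 CPM (-5.00, adjusted p = 0.0321, edgeR), a call lost without replicate 3 of every population (-4.68, adjusted p = 0.0768, edgeR). On library totals 2 were called higher and 2 lower, beside 6.98% and 37.6% of all genes.

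Of 4 tested genes for the redox partner of heme oxygenase and for bile pigment disposal, 3 fell and 0 rose, where 22.4% of all genes were called lower. Por, the reductase that feeds electrons to heme oxygenase, fell from 121 ± 49.1 to 36.2 ± 20.4 CPM (-1.74, adjusted p = 0.024, edgeR), and Abcc1, a pump that can carry bilirubin, from 223 ± 76.6 to 32.7 ± 12.7 CPM (-2.77, adjusted p = 0.00626, edgeR). Abcc2 was called lower too, but its S0-Low values were 0.0517, 1.30 and 14.6 CPM and the call was lost without replicate 3 of every population (adjusted p = 0.0889, edgeR). Abcc3, a related pump, held 1.08 ± 0.00645 CPM in S0-Low and 2.82 ± 2.11 CPM in S3 and did not pass (1.38, adjusted p = 0.495, edgeR). Without S3 replicate 3, 1 fall was left, with no share of all genes given for that fit. Ugt1a1, which conjugates bilirubin in hepatocytes, had 0 counts in every library and so was in no test.

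Among other heme sensors, Eif2ak1, the kinase that slows translation when heme is short, rose from 136 ± 33.8 to 2257 ± 925 CPM (4.06, adjusted p = 5.12e-05, edgeR). Nr1d1 and Nr1d2, nuclear receptors that bind heme, were lower (-3.67, adjusted p = 0.0485, and -3.79, adjusted p = 0.0369, edgeR), and neither was called without replicate 3 of every population (-3.20 and -3.24, adjusted p = 0.0762 and 0.07, edgeR). Of the 9 enzymes of heme synthesis 8 rose and 1 fell, with a median of 4.28 beside -0.54 over all genes, of which 13.4% were called higher and 22.4% lower. Alas2, the erythroid form of the first enzyme, went from 4.76 ± 0.737 to 3410 ± 744 CPM, and the housekeeping form Alas1 from 49.4 ± 5.83 to 6.91 ± 9.72 CPM (-2.83, adjusted p = 0.0394, edgeR), a call lost without replicate 3 of every population (-2.52, adjusted p = 0.153, edgeR).

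Likeness of pattern was measured by Pearson's r of log2(CPM + 0.5) over the 15 erythroid libraries among 9635 genes, as a description of libraries that share stage, replicate number and depth. The nearest genes were Epb4.2 (r = 0.996), Grina and Nek8 for Blvrb, Cpeb4 (0.992), Ddx26b and Agfg1 for Abcg2, and Ip6k1 (0.975), Arl6ip1 and Pnpla8 for Bach1. Flvcr1 was nearest to Ubqln4 (0.959), Prpf19 and Ppat. For the genes with flat or scattered patterns they were Pfkp (0.914), Lrp8 and Pmaip1 for Hmox1, Ap1s1 (0.876), Slc35c2 and Nfkbid for Hmox2, and Plin2 (0.933), Poc5 and Yeats4 for Blvra. Among the 7 themselves the highest value was 0.939, between Blvrb and Abcg2, and the lowest -0.827, between Flvcr1 and Bach1.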

How the data were processed

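Nascent RNA libraries (stranded total RNA kit, 14 cycles of PCR, no molecular identifiers stated) were measured in 6 sorted populations with 3 replicates each. The deposited values are whole-number counts per gene, made by the authors with kallisto 0.43.0 on GRCm38, per the labels. The transcript set, the handling of introns and the strand setting are not given in the sources used here. The table held 54232 genes, of which 30157 had a count in any library.

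The members and lists were chosen with earlier results of these data known. Counts were fitted with edgeR 4.0.16 in R 4.3.3 (quasi-likelihood test, TMM scaling, filterByExpr by population), on the 15 erythroid libraries (16555 genes) or, for Lin+, on all 18 (17755 genes), with Benjamini-Hochberg adjustment over all genes tested. Standard errors are the log2 fold change over the root of its F value. Levels use scaling factors from all 18 libraries. A floor of 3 counts covers counting error only. Exon lengths came from GENCODE vM1 (NCBIM37), used only for levels per kb, and coordinates and start sites from RefSeq on GRCm38.p6. Of 115 list symbols 114 were matched, 3 through older symbols. Genes named beside the 7 are members of these lists, chosen for role, or the 3 genes nearest each member by Pearson's r among genes with a mean of at least 5 CPM.

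Same-numbered libraries deviated together in 7 of 9 comparisons, where the correlation of deviations from population means was above 0.1 in every pair (0.1697 to 0.5466), so values with the replicate number as a block stand beside those results where they change a call. Alternatives were DESeq2 1.42.0, other scalings, filters and sets of libraries, a robust fit, globin genes left out, each library left out, and, chosen after seeing that replicate 3 stood apart, replicate 3 left out of every population. Scripts were tested on simulated data.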

Additional observations from a re-analysis of the deposited data

How the results depend on the processing

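Of 564 values of the 7 genes under alternatives, 490 kept their direction and their side of the threshold, 33 were no longer past it, 26 were newly past it and 15 changed sign, 7 of these with a library left out. None of the 14 called results changed sign (0 of 233 values). The cause was not tested for any of the changes below. In S3 against S2, where 1 of the 7 genes was called, DESeq2 called 3, no filter 3, all 18 libraries 2, the replicate block 4 and the compared libraries alone 0, and leaving out libraries gave 1 to 4. Calls over all genes there moved as well, from 9.35% in the main fit to 20.1% with DESeq2 and 18.6% with the block. In S1 against S0-Low, where 1 was called, DESeq2, the replicate block, the compared libraries alone and all 18 libraries each called 2, DESeq2-type (RLE) size factors and a minimum of 10 counts each called 0, and leaving out libraries gave 0 to 2. The share of all genes called there was 2.92% in the main fit, 9.83% with DESeq2 and 6.03% with the block. RLE size factors called 473 of all genes, against 484 in the main fit. In S3 against S1, with 4 called, leaving out libraries gave 2 to 4, and library totals and the compared libraries alone gave 3 each. Over all genes 19.3% were called there in the main fit and 27.1% on library totals. In the test of any difference, with 3 called, no filter and the replicate block gave 4 and library totals 2. The shares over all genes were 24.6% in the main fit, 33.1% with the block and 28.4% on library totals. In Lin+ against S0-Low, with 1 called, RLE size factors and a minimum of 10 counts each called 0, and leaving out libraries gave 0 to 1. RLE size factors called 148 of all genes there, against 127 in the main fit. With the replicate block 1 gene was called in S0-Medium against S0-Low and 1 in S1 against S0-Medium, against 0 without it. The block called 0.139% and 0.344% of all genes in these comparisons. Shares of all genes are not given for the other fits, so their counts cannot be told apart from a shift over all genes.

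Library totals turned Hmox1 to -0.40 and Blvra to -0.38 in S3 against S0-Low, and Blvra to 0.14 in Lin+ against S3. Bach1 in Lin+ against S0-Low, at -0.02, turned to 0.0076 with DESeq2, 0.0078 with RLE, 0.0514 with no filter, 0.0884 with the replicate block and 0.0379 with a minimum of 10 counts, and ran from -0.28 to 0.63 with libraries left out. Blvra there ran from -0.63 to 0.0507. None of these was called.

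In S3 against S0-Low and Lin+ against S3 the replicate numbers were not taken as pairs (correlations 0.0806 to 0.1309 and 0.0905 to 0.1605). The block called 42.4% of all genes in the first, with Flvcr1 added at -1.66 (adjusted p = 0.0289, edgeR) and 10 of the 12 BACH1 and NRF2 targets higher and 1 lower, and 48.1% in the second, with no member's call changed and 2 of those targets called higher. Over all genes, calls differed by more than 1.5 times with the block in S3 against S2 (3074 against 1548), S3 against S1 (4859 against 3190), S1 against S0-Low (999 against 484) and Lin+ against S0-Low (342 against 127), and DESeq2 called 3332, 5051, 1628 and 618 there. A paired sign-flip test of the ratios over 3 pairs cannot go below 0.25. Of the 21 nearest genes 9 remained when Lin+ was included. Low counts and replicates that disagree limit what can be said of Hmox1, which had 0 to 33 counts in 5 of the 15 erythroid libraries. Replicates 1, 2 and 3 held 228, 482 and 0 counts in S0-Medium and 395, 357 and 6 in S1.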
